A study of Mus musculus with 19 samples.

Results

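The genes described here encode plasma membrane and lysosomal carriers of the solute carrier families Slc1, Slc3, Slc6, Slc7, Slc36, Slc38 and Slc43, the families that hold most amino acid transporters. They were taken by symbol (one of these family stems followed by a number), without regard to their values, which gave 61 of 51912 genes in the table of normal and NSCLC organoids and 59 of 24421 in the table of sensitive and resistant organoids. The second table has no Slc6a16 or Slc6a21. Symbols with further letters, such as Slc6a20a, fall outside that rule (6 and 5 symbols). Some genes that meet the rule carry other substrates: Slc6a2, Slc6a3 and Slc6a4 take up monoamines, Slc6a8 creatine and Slc43a3 purine nucleobases.

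RNA came from mouse organoids, cultures grown in 3 dimensions, and was measured by bulk sequencing of stranded mRNA libraries. One deposited table compares organoids of normal lung (n = 3) with organoids of non-small cell lung cancer, NSCLC (n = 4). The other compares immunotherapy-sensitive (n = 3) with immunotherapy-resistant NSCLC organoids (n = 9), in a study of how resistance to immunotherapy is acquired. The labels give no strain, genotype, tumour driver, age or immunotherapy agent for any group, and nothing in them ties a library to an animal or a culture of its own. Each p-value therefore covers library-to-library spread alone, part or all of which may be technical. No library is shared between the tables, and no level was compared across them.

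Amino acid carriers work as a network. Exchangers such as Slc7a5 and Slc7a11 bring in 1 amino acid while letting another out. They therefore depend on other carriers, such as Slc38a1 and Slc38a2, which accumulate amino acids with sodium. The heavy chain encoded by Slc3a2 brings Slc7a5, Slc7a6, Slc7a7, Slc7a8 and Slc7a11 to the membrane, and Slc3a1 does so for Slc7a9. Shortage of amino acids is known to raise several of these genes through the transcription factor Atf4, which binds C/EBP-ATF response elements. In lung, Slc6a14 is known as a carrier of the epithelium that takes up neutral and cationic amino acids.

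Start regions of the genes were searched on both strands for TGATGNAA, the core of the C/EBP-ATF element, because several of the genes described below are known Atf4 targets. Of all RefSeq start regions of the same length, from 250 bases before to 30 after a start (GRCm38.p6, the mm10 build, 32851 regions), 3.81% held a match. Of 64 such regions of 43 of the transporter genes, 5 did (7.81%), in Slc1a4, Slc7a7, Slc7a11 and Slc6a21. The other transporter genes, Slc7a5 among them, had no start region in that set and were not searched. For comparison, 9 of 28 regions of the amino acid response genes described below held it (32.1%). The 3 expressed genes with a match are shown, each from 5′ to 3′ on its own coding strand, with the matches in capitals (TTGCATCA is a match on the opposite strand). They lie at chr3:50443584-50443863 for Slc7a11, chr11:20332684-20332963 for Slc1a4 and chr14:54417915-54418194 for Slc7a7 (1 of its 5 RefSeq starts), all on the minus strand.
Slc7a11: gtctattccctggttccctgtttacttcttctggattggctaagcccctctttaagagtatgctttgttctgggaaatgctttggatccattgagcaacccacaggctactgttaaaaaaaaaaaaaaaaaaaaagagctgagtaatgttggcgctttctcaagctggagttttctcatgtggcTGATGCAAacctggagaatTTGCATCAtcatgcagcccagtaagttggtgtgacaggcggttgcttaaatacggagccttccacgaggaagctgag
Slc1a4: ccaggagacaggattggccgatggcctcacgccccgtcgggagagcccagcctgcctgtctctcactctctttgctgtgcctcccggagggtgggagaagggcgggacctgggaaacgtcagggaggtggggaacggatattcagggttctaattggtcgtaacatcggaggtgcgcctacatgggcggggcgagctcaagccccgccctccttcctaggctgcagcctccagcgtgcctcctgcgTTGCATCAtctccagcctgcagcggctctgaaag
Slc7a7: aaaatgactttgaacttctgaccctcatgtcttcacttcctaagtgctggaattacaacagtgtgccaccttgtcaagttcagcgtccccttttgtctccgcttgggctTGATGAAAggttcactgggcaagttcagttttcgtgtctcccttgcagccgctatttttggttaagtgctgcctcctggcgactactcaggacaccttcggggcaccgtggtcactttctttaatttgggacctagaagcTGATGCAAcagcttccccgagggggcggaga
Slc7a11 holds a match in each orientation, at -66 to -59 and -47 to -40 from its start. The match of Slc1a4 spans the start (-4 to 4), and Slc7a7 holds one at -141 to -134 and another across the start (-1 to 7). A match is only a run of letters, and no binding was measured here.

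Libraries held 20138197 to 21060762 counts in normal and 122967042 to 154479953 in NSCLC organoids, so depth goes with the group in that table. Sensitive libraries held 15292427 to 18716749 counts and resistant libraries 11988677 to 24462955. The summed level of 6 macrophage markers was 1577 to 2878 CPM (the count scaled to library size) in normal and 23.7 to 46.6 CPM in NSCLC, and that of 7 fibroblast markers 76.9 to 434.5 CPM and 0.282 to 0.683 CPM, with Lum at 0 in NSCLC. Both sums were highest in normal library 2. The sum of 6 epithelial markers was 1714 to 1966 CPM in normal and 9041 to 13920 CPM in NSCLC, that of 6 alveolar type 2 markers 50270 to 59260 and 7284 to 13750 CPM, and that of 3 club cell markers 339 to 660 and 3.497 to 31.8 CPM, with Scgb3a2 at 0 in NSCLC. In the other table, the macrophage sum was 1564 to 3605 CPM in sensitive libraries, highest in library 2, and 203 to 1101 CPM in resistant ones. The fibroblast sum was 11.4 to 31.9 CPM in sensitive and 64.8 to 969 CPM in resistant libraries, and the sum of 6 epithelial markers 5283 to 6972 CPM and 295 to 2279 CPM. Epcam, which defines epithelial cells, was at 538 to 598 CPM in sensitive libraries, at 237 and 323 CPM in resistant libraries 8 and 9, and at 0.818 to 30.3 CPM in resistant libraries 1 to 7. Resistant libraries 8 and 9 thus stand apart, and the results below are also given without them where that changes a call.

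In NSCLC organoids, the arginine and lysine carrier Slc7a1, the neutral amino acid carriers Slc1a4, Slc7a5, Slc38a1 and Slc38a2 and the heavy chain Slc3a2 were higher than in normal lung organoids. Slc6a14 of lung epithelium, the taurine carrier Slc6a6, the glutamate carrier Slc1a1 and the large neutral carrier Slc43a2 were lower. Of 61 genes 39 had enough counts to be tested, and at an adjusted p under 0.05, the threshold for a call, 12 were higher and 13 lower. Across all 19932 genes tested, 28.5% were called higher and 25.0% lower (53.5% in either direction). Thus 12 of 39 higher is near the share of all genes and 13 of 39 lower is above it, a difference that was not tested. The median log2 fold change was 0.00 over the 39 genes and 0.11 over all genes. Groups that do not overlap were common in this comparison, at 59.4% of all genes tested (31.6% higher, 27.7% lower). Among the 39 transporter genes, 13 were higher and 14 lower without overlap. The median of all genes was -0.08 under upper quartile scaling, which gave 10 higher and 16 lower. Slc7 had 5 of 10 tested genes higher and 0 lower, Slc3 had 1 of 2 higher, and Slc38 had 3 of 9 higher and 3 lower. Slc6 had 2 of 8 higher and 5 lower, Slc1 1 of 5 higher and 2 lower, Slc36 0 of 3 higher and 1 lower, and both tested genes of Slc43 were lower. In these bulk samples, fewer cells of a type and less RNA per cell cannot be told apart.

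**Figure D1:**
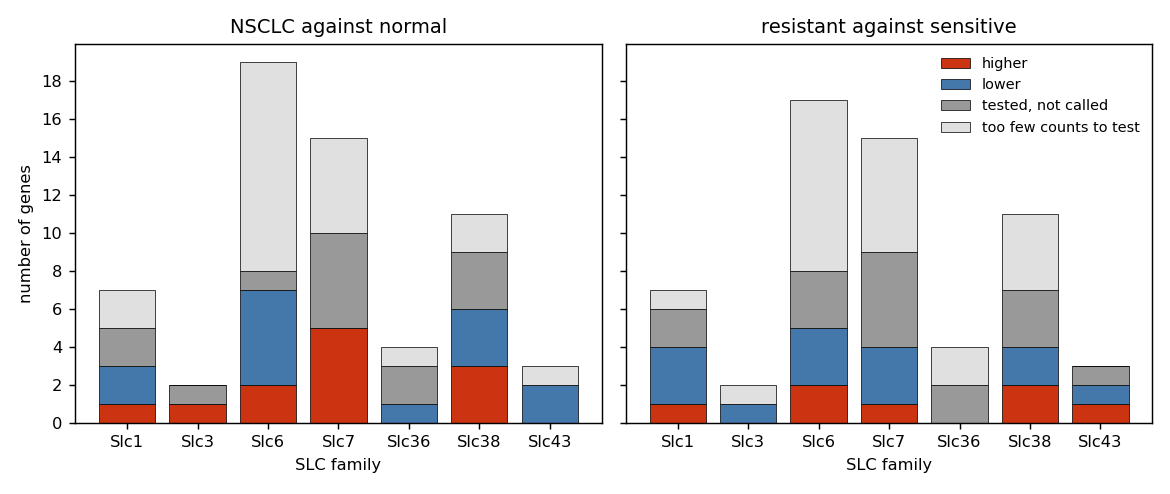
Number of transporter genes per SLC family (vertical axis, genes) in NSCLC against normal organoids (left) and resistant against sensitive organoids (right), split by edgeR call at an adjusted p under 0.05. The 5 calls of Slc7 in NSCLC were all higher, and most Slc6 genes had too few counts to be tested in either table.

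Slc7a1, which carries arginine and lysine, was at 31.6, 36.2 and 28.7 CPM in the normal libraries and at 246, 233, 182 and 219 CPM in the NSCLC libraries. All 4 NSCLC libraries lay far above all 3 normal ones, a 6.85-fold higher mean (log2 fold change 2.78 ± 0.16 SE, edgeR adjusted p = 7.42e-06). Its relative Slc7a2, known for arginine uptake in macrophages and other cells, was at 5.98, 14.9 and 4.85 CPM in normal and 2.79, 7.001, 11.6 and 12.9 CPM in NSCLC. These ranges overlapped in part, and the gene was not called (adjusted p = 1.0). Slc7a3, another cationic carrier, rose from between 0.234 and 0.693 CPM to between 0.745 and 1.77 CPM (log2 fold change 1.41 ± 0.49, adjusted p = 0.0389), a call that was lost in 8 of 13 alternatives (adjusted p up to 0.145), 6 of which left out 1 library (any of the 3 normal libraries or NSCLC library 1, 2 or 4).

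Slc7a5, the light chain of the large neutral amino acid exchanger LAT1, was at 45.7, 61.8 and 42.0 CPM in normal and 307, 224, 96.6 and 133 CPM in NSCLC organoids. The groups did not overlap although NSCLC libraries differed among themselves by over 3-fold in level (log2 fold change 1.93 ± 0.40, adjusted p = 0.00421). Its heavy chain partner Slc3a2 was at 79.8, 138 and 98.8 CPM in normal and 302, 210, 174 and 203 CPM in NSCLC (log2 fold change 1.08 ± 0.25, adjusted p = 0.00724). NSCLC library 1 was the highest for both. Slc7a11, the cystine-glutamate exchanger that supplies cysteine for glutathione, was at 79.9, 163 and 97.2 CPM in normal and 259, 249, 153 and 169 CPM in NSCLC. Normal library 2 lay within the NSCLC range, and the call (log2 fold change 0.87 ± 0.30, adjusted p = 0.0363) was lost under upper quartile scaling, after thinning to equal depth and without normal library 1 or 3 or NSCLC library 1 or 2 (adjusted p up to 0.119).

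The other partners of Slc3a2 were not called. Slc7a6, which exchanges cationic for neutral amino acids, was at 38.3 to 45.1 CPM in normal and 43.2 to 67.6 CPM in NSCLC. Slc7a7, the same kind of exchanger in macrophages and epithelia, was at 8.83 to 15.3 and 4.88 to 10.2 CPM. Slc7a8, a further neutral exchanger, was at 0.607 to 1.02 and 0.0827 to 0.498 CPM, in ranges that do not overlap (adjusted p = 0.0686). Slc7a6 was called higher without NSCLC library 1, Slc7a7 lower under upper quartile scaling, in DESeq2 and without normal library 2 or NSCLC library 2, and Slc7a8 lower in DESeq2 and without NSCLC library 1. Slc7a9, the light chain of the cystine and cationic carrier of kidney and gut, had 0 counts in every normal library and 0.0402, 1.17, 0.372 and 0.948 CPM in NSCLC, at least 4.51-fold higher against 3 counts in the shallowest normal library. Its heavy chain Slc3a1 was at 0.0879 to 0.140 CPM in normal and 0.149 to 0.792 CPM in NSCLC and was not called.

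Among the Slc1 carriers, Slc1a4 and Slc1a5 exchange small neutral amino acids, the latter glutamine in particular, and Slc1a1, Slc1a2 and Slc1a3 take up glutamate and aspartate. Slc1a4 was at 7.71, 13.1 and 8.50 CPM in normal and 58.9, 113, 102 and 69.9 CPM in NSCLC, 8.82-fold higher with a gap between the groups (log2 fold change 3.14 ± 0.31, adjusted p = 1.04e-04). Slc1a5 was at 158, 149 and 145 CPM in normal and 246, 198, 147 and 158 CPM in NSCLC. Only NSCLC libraries 1 and 2 lay above the normal range, and the gene was not called (log2 fold change 0.31 ± 0.19, adjusted p = 0.202). Slc1a1 was at 49.1, 28.5 and 45.0 CPM in normal and 15.9, 4.44, 8.44 and 4.01 CPM in NSCLC, 4.99-fold lower (log2 fold change -2.32 ± 0.48, adjusted p = 0.00437). Slc1a3 was at 8.64 to 10.9 CPM in normal and 0.383 to 5.18 CPM in NSCLC (log2 fold change -1.95 ± 0.68, adjusted p = 0.0398), a call lost after thinning and without any 1 normal library or NSCLC library 2 or 3 (adjusted p up to 0.0891). Slc1a2 was at 0.277 to 0.395 and 0.364 to 3.37 CPM and was not called.

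The sodium-coupled Slc38 carriers of glutamine and alanine divided. Slc38a1 was at 31.5, 26.1 and 28.9 CPM in normal and 122, 77.3, 51.8 and 68.7 CPM in NSCLC, 2.78-fold higher (log2 fold change 1.47 ± 0.28, adjusted p = 0.00276). Slc38a2, known to be induced when amino acids are short, was at 235, 229 and 265 CPM in normal and 376, 363, 553 and 458 CPM in NSCLC (log2 fold change 0.85 ± 0.18, adjusted p = 0.00501). No NSCLC library fell within the normal range for either gene. Slc38a3, a glutamine carrier of liver, kidney and brain, had 2 counts in all normal libraries together and 2.58, 5.05, 10.7 and 7.49 CPM in NSCLC, a ratio of 211 (95% interval of counting error 58.3 to 1740). Slc38a4, a carrier of liver and placenta, had 2 counts in all NSCLC libraries together and 0.231 to 0.659 CPM in normal, 135 times higher in normal (34.5 to 1160).

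Slc38a9, the lysosomal arginine sensor of the mTORC1 pathway, was at 17.99, 15.5 and 16.3 CPM in normal and 13.1, 12.9, 11.6 and 11.3 CPM in NSCLC (log2 fold change -0.44 ± 0.14, adjusted p = 0.0315). Slc38a10 was at 154, 169 and 166 CPM in normal and 134, 130, 103 and 95.9 CPM in NSCLC (log2 fold change -0.50 ± 0.15, adjusted p = 0.0232). Both falls were small, with groups that did not overlap. Each call was lost with no filter on low counts and without normal library 3, and without library 1 for Slc38a9 or 2 for Slc38a10 (adjusted p up to 0.124 and 0.0817). Slc38a6, Slc38a7 and Slc38a11 were not called. The lysosomal carrier Slc36a1, which moves small amino acids with protons, and its relative Slc36a4 were at 25.7 to 35.2 and 29.4 to 36.2 CPM in normal and at 11.95 to 34.6 and 25.3 to 32.2 CPM in NSCLC and were not called. Slc36a1 was called lower without NSCLC library 1.

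**Figure D2:**
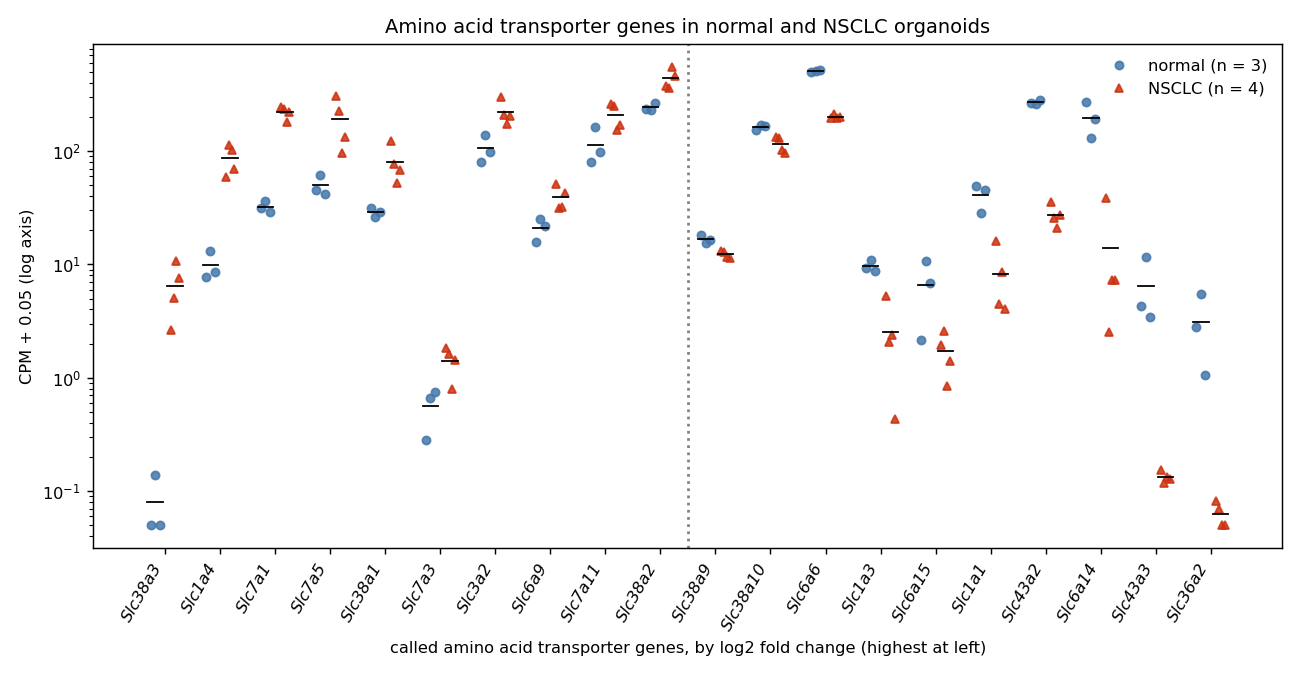
Level of each called transporter gene with a mean of at least 1 CPM in a group (vertical axis, CPM plus 0.05 on a log scale) in 3 normal (blue circles) and 4 NSCLC libraries (red triangles), with the group mean as a line and genes ordered by log2 fold change. Slc7a1 and Slc43a2 show groups far apart with little spread, and Slc7a11 and Slc6a15 show groups that overlap.

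Slc6a14 and Slc6a6 had the highest levels per kilobase of exon among all transporter genes of normal organoids, with 57.5 and 60.02 CPM per kilobase, and both were lower in NSCLC. Slc6a14 was at 269, 131 and 192 CPM in normal and 38.3, 2.48, 7.21 and 7.30 CPM in NSCLC, 14.3-fold lower in the mean (log2 fold change -3.84 ± 0.85, adjusted p = 0.00592). NSCLC library 1 held over 5 times the level of the next NSCLC library yet stayed below every normal one. The alveolar type 2 and club cell sums were lower in NSCLC as well and the epithelial sum higher, and the part of these cells in the lower levels of Slc6a14, Slc6a6, Slc1a1 and Slc43a2 was not tested. Slc6a6, the taurine carrier, was at 496, 512 and 516 CPM in normal and 194, 212, 197 and 201 CPM in NSCLC, with the least spread of these genes (log2 fold change -1.34 ± 0.11, adjusted p = 4.77e-05). Slc6a9, a glycine carrier, rose from 15.6, 25.2 and 21.7 CPM to 51.4, 31.4, 32.3 and 42.2 CPM (log2 fold change 0.92 ± 0.23, adjusted p = 0.0114).

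Slc6a8, the creatine carrier, was at 75.8 to 99.2 CPM in normal and at 40.1, 63.4, 338 and 123 CPM in NSCLC. NSCLC libraries fell on both sides of the normal range, and the gene was not called. Slc6a15, a carrier of branched-chain amino acids and proline, was at 2.10, 10.8 and 6.74 CPM in normal and 1.91, 2.56, 0.794 and 1.35 CPM in NSCLC, in overlapping ranges (log2 fold change -1.98 ± 0.57, adjusted p = 0.0194), and without normal library 2 or 3 the call was lost (adjusted p up to 0.0825). The other called genes of the family had low levels. Slc6a12, the betaine carrier, was at 0.231 to 0.747 CPM in normal and 0 to 0.0139 CPM in NSCLC. Slc6a3, the dopamine carrier, was at 0.323 to 0.794 and 0.00697 to 0.0562 CPM. Slc6a19, the neutral amino acid carrier of gut and kidney, had 3 counts in normal and 0.153 to 1.22 CPM in NSCLC, a ratio of 12 (4.06 to 58.5).

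Slc43a2, a facilitated carrier of large neutral amino acids, had the lowest adjusted p of the transporter genes in this comparison. It was at 265, 262 and 282 CPM in normal and 35.2, 25.7, 20.8 and 27.4 CPM in NSCLC, 9.88-fold lower with wide separation (log2 fold change -3.30 ± 0.18, adjusted p = 6.47e-06). Slc43a3 was at 4.20, 11.5 and 3.37 CPM in normal and 0.104, 0.0671, 0.0827 and 0.0767 CPM in NSCLC (log2 fold change -6.24 ± 0.53, adjusted p = 4.74e-05). Slc36a2, a proton-coupled carrier of glycine and proline, was at 2.76, 5.41 and 1.02 CPM in normal and 0 to 0.0321 CPM in NSCLC (log2 fold change -7.72 ± 1.02, adjusted p = 4.53e-04). Slc43a3 and Slc36a2, like Slc6a15 and Slc7a2, were highest in normal library 2, where the macrophage and fibroblast sums were also highest. That trait was not particular to them. Among normal libraries, library 2 was also the highest for Slc1a4, Slc3a2, Slc6a9, Slc7a1, Slc7a5 and Slc7a11, which were higher in NSCLC. The part of macrophages and fibroblasts in these differences was not tested.

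In resistant organoids, the cystine exchanger Slc7a11, the arginine carriers Slc7a1 and Slc7a2, the glycine carrier Slc6a9 and the glutamine carriers Slc38a1 and Slc38a2 were lower than in sensitive organoids. The taurine carrier Slc6a6 and the creatine carrier Slc6a8 were higher. Of 59 genes 36 were tested, and 7 were called higher and 13 lower. Across all 14360 genes tested, 19.3% were called higher and 18.2% lower (37.5% in either direction), so 7 of 36 is near the share of all genes and 13 of 36 above it, a difference that was not tested. The median log2 fold change was -0.19 over the 36 genes and 0.06 over all genes. Sensitive and resistant libraries did not overlap for 31.3% of all genes tested (14.8% higher, 16.5% lower). Among the 36 transporter genes, 5 were higher and 12 lower without overlap. Without sensitive library 1, 2 or 3 the number higher was 2, 3 or 1, and the number lower 9, 9 or 10. Without resistant libraries 8 and 9 it was 6 higher and 11 lower. The lower calls fell in Slc1 (3 of 6 tested), Slc3 (1 of 1), Slc6 (3 of 8), Slc7 (3 of 9), Slc38 (2 of 7) and Slc43 (1 of 3), and the higher calls in Slc6 and Slc38 (2 each) and in Slc1, Slc7 and Slc43 (1 each).

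Slc7a11 was at 1922, 1457 and 1137 CPM in the sensitive libraries and at 146 to 541 CPM with a median of 298 CPM in the resistant ones. Every sensitive library held over 2 times the level of the highest resistant library, and the mean was 4.60-fold lower in resistance (log2 fold change -2.20 ± 0.33, edgeR adjusted p = 3.12e-04). Its heavy chain Slc3a2, which had the highest level per kilobase of any transporter gene in both groups (294 and 132 CPM per kilobase), was at 1113, 874 and 1127 CPM in sensitive and 152 to 817 CPM (median 404) in resistant libraries. These ranges did not overlap either, but the call (log2 fold change -1.16 ± 0.40, adjusted p = 0.0350) was lost in 9 of 19 alternatives (adjusted p up to 0.114), among them the removal of any 1 sensitive library, of resistant library 3, 8 or 9, and of libraries 8 and 9 together. Slc7a5 was at 708, 525 and 612 CPM in sensitive and at 92.5 to 1037 CPM (median 244) in resistant libraries. Resistant libraries 1 and 6 lay above all sensitive ones, and the gene was not called (log2 fold change -0.59 ± 0.66, adjusted p = 0.508).

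Both arginine carriers fell. Slc7a1 was at 1000, 688 and 858 CPM in sensitive and 118 to 372 CPM (median 137) in resistant libraries, 4.09-fold lower (log2 fold change -2.03 ± 0.38, adjusted p = 0.00126). Slc7a2 was at 560, 544 and 351 CPM in sensitive and 26.2 to 224 CPM (median 113) in resistant libraries, 3.99-fold lower (log2 fold change -1.996 ± 0.40, adjusted p = 0.00212). Neither gene overlapped between the groups, but among resistant libraries they ran differently: library 1 was among the 3 highest for Slc7a1 and lowest for Slc7a2. Slc7a3 was at 0.427 to 1.35 CPM in sensitive and at 21.0, 40.6 and 9.82 CPM in resistant libraries 1, 2 and 3, but at 0.722 to 1.55 CPM in the other resistant libraries, and was not called (adjusted p = 0.110). In the authors' deposited DESeq2 values it was higher, with an adjusted p of 0.0138, so its call depends on the test.

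Of the other Slc7 exchangers 1 rose. Slc7a6 was at 47.1, 44.6 and 50.3 CPM in sensitive and 63.3 to 138 CPM (median 67.5) in resistant libraries, without overlap (log2 fold change 0.73 ± 0.24, adjusted p = 0.0273), a call lost on removal of any 1 sensitive library (adjusted p up to 0.0972). Slc7a7 was at 4.88 to 7.50 CPM in sensitive and 4.18 to 11.2 CPM in resistant, and Slc7a8 at 8.03 to 21.1 and 5.08 to 48.9 CPM, and neither was called. Slc7a4 was not called.

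Of the small neutral amino acid carriers, Slc1a5 was at 550, 442 and 606 CPM in sensitive and 95.4 to 417 CPM (median 222) in resistant libraries, without overlap (log2 fold change -1.06 ± 0.36, adjusted p = 0.0318). That call was lost without any 1 sensitive library or without resistant library 7 (adjusted p up to 0.117). Slc1a4 was at 129 to 167 CPM in sensitive and 35.3 to 214 CPM (median 47.4) in resistant libraries and was not called. Slc38a2 was at 1032, 971 and 997 CPM in sensitive and 340 to 670 CPM (median 439) in resistant libraries, with all resistant libraries below all sensitive ones (log2 fold change -1.10 ± 0.19, adjusted p = 6.97e-04). Slc38a1 was at 435, 311 and 379 CPM in sensitive and 68.0 to 266 CPM (median 133) in resistant libraries, 2.58-fold lower (log2 fold change -1.37 ± 0.38, adjusted p = 0.0123), although without sensitive library 1 the call was lost (adjusted p = 0.0645). Slc6a9 was at 437, 347 and 491 CPM in sensitive and 25.7 to 240 CPM (median 97.5) in resistant libraries, 3.89-fold lower (log2 fold change -1.96 ± 0.54, adjusted p = 0.0122).

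**Figure D3:**
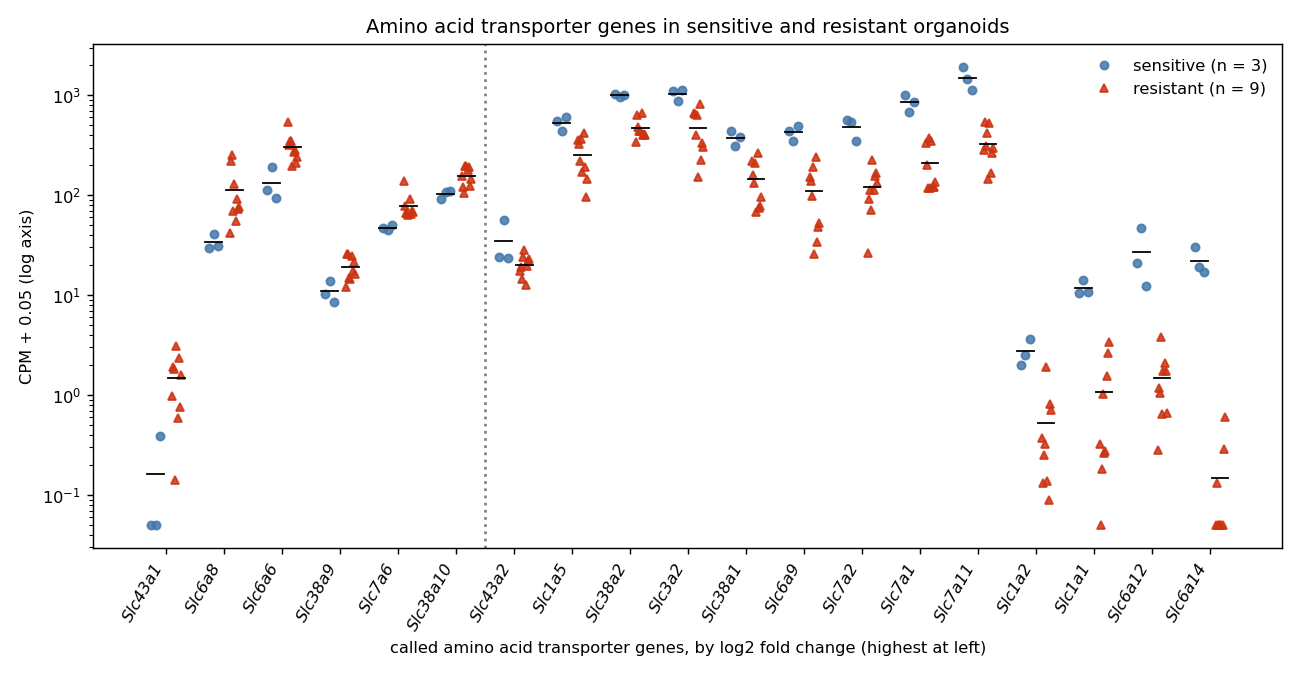
Level of each called transporter gene with a mean of at least 1 CPM in a group (vertical axis, CPM plus 0.05 on a log scale) in 3 sensitive (blue circles) and 9 resistant libraries (red triangles), with the group mean as a line and genes ordered by log2 fold change. Slc7a11, Slc7a1, Slc7a2 and Slc38a2 lie between 26.2 and 1922 CPM with groups apart, and Slc6a14 falls to 0 in 6 resistant libraries.

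Slc6a14, Slc1a1, Slc6a12 and Slc43a2, lower in NSCLC too, were lower in resistance. Slc6a14 was at 30.3, 19.0 and 16.9 CPM in sensitive and at 0 CPM in 6 of 9 resistant libraries, with 0.0815, 0.236 and 0.555 CPM in resistant libraries 2, 8 and 9 (log2 fold change -7.83 ± 0.98, adjusted p = 9.78e-05). Slc1a1 was at 10.6, 14.1 and 10.8 CPM in sensitive and 0 to 3.33 CPM (median 0.277) in resistant libraries (log2 fold change -3.51 ± 0.89, adjusted p = 0.00829). Both were highest among resistant libraries in 8 and 9, the libraries with Epcam at 237 and 323 CPM. Slc6a12 was at 21.0, 46.8 and 12.4 CPM in sensitive and 0.231 to 3.79 CPM (median 1.14) in resistant libraries (log2 fold change -4.22 ± 0.58, adjusted p = 1.85e-04). Slc43a2 was at 24.2, 56.3 and 23.6 CPM in sensitive and 12.7 to 28.2 CPM (median 19.7) in resistant libraries, in overlapping ranges (log2 fold change -0.79 ± 0.28, adjusted p = 0.0431), and lost its call in 14 of 19 alternatives (adjusted p up to 0.530), including removal of sensitive library 2 or of any resistant library other than 5, and of resistant libraries 8 and 9 together. Slc6a12 and Slc43a2 were highest in sensitive library 2, where Csf1r, the macrophage receptor, was at 454 CPM against 95.5 and 151 CPM in the other sensitive libraries and 12.6 to 42.1 CPM in resistant ones. The part of epithelial cells and of macrophages in these differences was not tested.

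Glutamate carriers had low levels. Slc1a2 was at 1.97, 2.499 and 3.58 CPM in sensitive and 0.0396 to 1.85 CPM (median 0.277) in resistant libraries (log2 fold change -2.46 ± 0.79, adjusted p = 0.0267), although the call was lost without any 1 sensitive library and without resistant libraries 6, 8 and 9 together (adjusted p up to 0.106). Slc1a3 was at 4.52 to 5.36 CPM in sensitive and 2.79 to 35.98 CPM (median 7.57) in resistant libraries and was not called. Slc1a7, a glutamate carrier of the retina, had 2 counts in all sensitive libraries together and 0.172 to 2.20 CPM in resistant ones, a ratio of 13.9 (95% interval of counting error 3.75 to 116).

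The genes that rose had modest or uneven changes. Slc6a6 was at 112, 189 and 92.7 CPM in sensitive and 198 to 538 CPM (median 284) in resistant libraries, without overlap (log2 fold change 1.22 ± 0.31, adjusted p = 0.00864), although without sensitive library 3 the call was lost (adjusted p = 0.0544). Slc6a8 was at 29.4, 41.0 and 30.9 CPM in sensitive and 41.9 to 253 CPM (median 75.6) in resistant libraries, highest in resistant libraries 2 and 3 (log2 fold change 1.73 ± 0.54, adjusted p = 0.0231), and lost its call without any 1 sensitive library (adjusted p up to 0.0848). Slc43a1, a facilitated carrier of branched-chain amino acids, was at 0, 0 and 0.337 CPM in sensitive and 0.0924 to 3.06 CPM (median 1.55) in resistant libraries (log2 fold change 3.66 ± 1.21, adjusted p = 0.0295), although without sensitive library 1 or 2 the call was lost (adjusted p up to 0.107).

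The lysosomal sensor Slc38a9 was at 10.1, 13.96 and 8.50 CPM in sensitive and 12.1 to 25.996 CPM (median 17.6) in resistant libraries (log2 fold change 0.82 ± 0.29, adjusted p = 0.0373). Slc38a10 was at 91.0, 108 and 111 CPM in sensitive and 104 to 197 CPM (median 157) in resistant libraries (log2 fold change 0.61 ± 0.21, adjusted p = 0.0356). For both, the lowest resistant libraries lay within the sensitive range. The call of Slc38a9 was lost in 9 of 19 alternatives, among them removal of sensitive library 1 or 3 or of resistant library 2, 3, 6 or 8, or of resistant libraries 8 and 9 together (adjusted p up to 0.160). That of Slc38a10 was lost in 8, among them removal of any 1 sensitive library or of resistant library 4, 6 or 7 (adjusted p up to 0.358). Slc36a1, at 12.9 to 25.9 CPM in sensitive and 17.7 to 36.6 CPM in resistant libraries, and Slc36a4, at 11.9 to 17.0 and 8.48 to 15.0 CPM, were not called, and Slc36a1 was called higher without sensitive library 2 or resistant library 1.

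Genes too low to be tested numbered 22 in the NSCLC table, with no group mean above 0.106 CPM, and 23 in the resistant table, with no group mean above 0.464 CPM. Slc6 held the most in each, 11 and 9. They include the kidney carriers Slc6a18, Slc7a12 and Slc7a13. No count at all was found for 3 of them in the first table (Slc6a11, Slc7a12 and Slc7a13) and for 6 in the second, among them Slc6a18, Slc7a13, Slc36a3 and Slc38a11. In the authors' deposited DESeq2 values, 13 transporter genes were higher and 19 lower in NSCLC, and 9 higher and 14 lower in resistance, at the same threshold. That test and its set of genes differ from those used here. Its lower calls include genes too low to be tested here, Slc1a6, Slc6a17 and Slc7a10 in NSCLC and Slc6a13 in resistance. It also called Slc1a2 and Slc38a6 in NSCLC and Slc6a17 in resistance, which were tested but not called here.

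Of the 32 genes tested in both tables, 13 were called in both comparisons, which share no library. Slc3a2, Slc6a9, Slc7a1, Slc7a11, Slc38a1 and Slc38a2 were higher in NSCLC than in normal organoids and lower in resistant than in sensitive ones. Slc6a6, Slc38a9 and Slc38a10 went the other way, lower in NSCLC and higher in resistance. Slc1a1, Slc6a12, Slc6a14 and Slc43a2 were lower in both, and 0 were higher in both. Opposite calls thus made up 69.2% of the transporter genes called in both, against 45.7% of all 2869 genes called in both, of 13312 tested in both. That difference was not tested. For all genes, higher in both was the most frequent pair of calls, at 32.0%. Of these 13 genes, Slc7a11, Slc38a9 and Slc38a10 lost their call in NSCLC, and Slc3a2, Slc38a1, Slc6a6, Slc38a9, Slc38a10 and Slc43a2 theirs in resistance, without at least 1 of the libraries named above. With any 1 library left out, only Slc6a9, Slc7a1 and Slc38a2 kept opposite calls, and Slc1a1, Slc6a12 and Slc6a14 stayed lower in both.

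**Figure D4:**
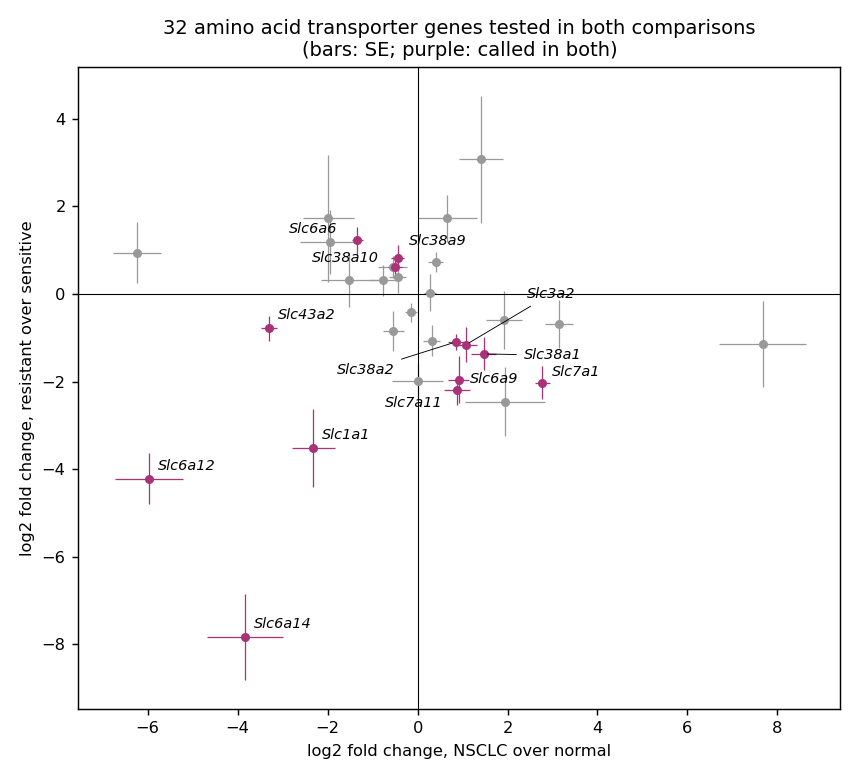
Log2 fold change in NSCLC over normal (horizontal axis) against resistant over sensitive (vertical axis) for 32 transporter genes tested in both tables, with SE as bars and the 13 genes called in both in purple. Of the purple points, 6 lie at the lower right, 3 at the upper left and 4 at the lower left.

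Within the resistant group, several transporter genes ordered the libraries alike. Slc3a2 was at 152, 223, 333 and 305 CPM in resistant libraries 5, 7, 8 and 9 and at 404 to 817 CPM in the other 5. Slc7a5 had 92.5, 153, 111 and 142 CPM there, against 244 to 1037 CPM in the others. Slc6a9, Slc38a1, Slc1a5 and Slc38a7, a lysosomal glutamine and asparagine exporter, were likewise lowest in the same 4. Libraries 5, 7, 8 and 9 were picked out after these values were seen, and no test was made of them. They were the 4 lowest resistant libraries for 6 of 36 transporter genes tested (16.7%), for 16 of 28 amino acid response genes (57.1%) and for 3.7% of all genes tested. Atf4 was at 221, 247, 244 and 208 CPM there and at 480 to 892 CPM in the others, against 792 to 1005 CPM in sensitive libraries. Slc7a2 and Slc6a6 did not follow that order. The same 4 libraries include both libraries with high Epcam (8 and 9) and those with Epcam at 0.818 and 7.93 CPM (5 and 7), and their fibroblast sums ran from 467 to 969 CPM against 64.8 to 495 CPM in the others.

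**Figure D5:**
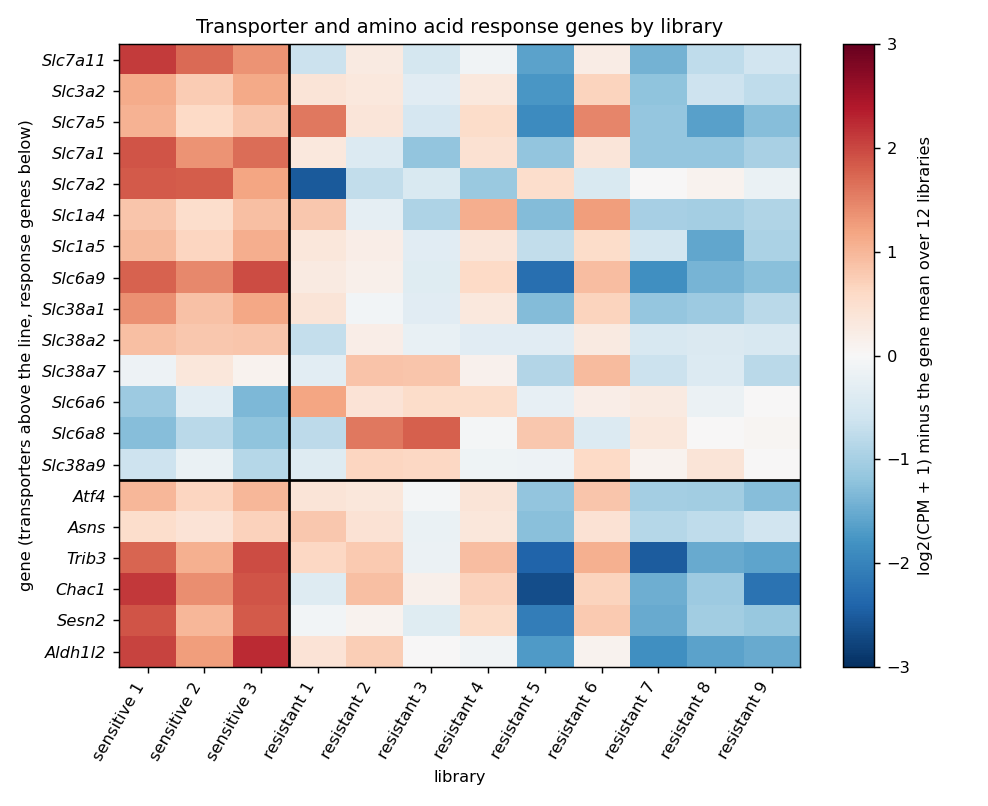
Level of 14 transporter genes (above the black line) and 6 amino acid response genes (below it) in 3 sensitive and 9 resistant libraries, as log2(CPM + 1) minus the mean of that gene over the 12 libraries, red above and blue below that mean. Resistant libraries 5, 7, 8 and 9 are blue for Slc3a2, Slc7a5, Slc6a9, Slc38a1, Atf4 and Trib3, and Slc7a2 is lowest in resistant library 1.

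Genes that use, sense or respond to amino acids were listed by pathway. In NSCLC, 23 of 28 amino acid response genes tested were higher and 2 lower, with a median log2 fold change of 1.78 against 0.11 over all genes. Among them Psat1 of serine synthesis rose from 77.8 ± 12.9 CPM (SD, n = 3) to 436 ± 41.6 CPM (n = 4), and Chac1, a glutathione-degrading enzyme, from 4.07 ± 1.34 to 26.3 ± 4.14 CPM. Atf4 itself was at 125, 168 and 153 CPM in normal and 262, 227, 198 and 244 CPM in NSCLC. In resistance, 10 of the 28 were lower and 1 higher, with a median of -0.85 against 0.06. Psph, the last enzyme of serine synthesis, fell from 318 ± 82.8 CPM (n = 3) to 78.1 ± 47.8 CPM (n = 9), Atf5 from 362 ± 81.8 to 65.2 ± 48.5 CPM and Aldh1l2 of mitochondrial folate metabolism from 613 ± 201 to 132 ± 84.7 CPM. Eif2ak4, the kinase that senses uncharged tRNA, was the 1 that rose, from 20.6 ± 1.18 to 54.0 ± 15.9 CPM.

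Of 19 genes of glutamine, aspartate and proline metabolism, 13 were higher and 2 lower in NSCLC (median log2 fold change 1.23), and 6 higher and 3 lower in resistance (0.12). Got1, the cytosolic aspartate aminotransferase, rose from 35.9 ± 5.29 to 143 ± 8.32 CPM in NSCLC. In resistance Gfpt1, the first enzyme of the hexosamine pathway, fell from 959.6 ± 488 to 132 ± 34.4 CPM and Oat, the ornithine aminotransferase, rose from 37.4 ± 12.7 to 83.5 ± 13.6 CPM. The list of 19 cystine and glutathione genes also held genes outside that metabolism, such as Nqo1 and Acsl4. Of the 19, 8 were higher and 1 lower in NSCLC (median 0.58), and 3 higher and 8 lower in resistance (-0.37). Cbs of cysteine synthesis rose from 0.866 ± 0.0753 to 17.6 ± 1.38 CPM in NSCLC. Acsl4, which loads polyunsaturated fatty acids into membrane lipids, fell from 729 ± 58.0 to 160 ± 62.1 CPM in resistance, and Nqo1, a quinone reductase, rose from 1.22 ± 0.841 to 37.97 ± 27.6 CPM.

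The list of branched-chain amino acid and arginine metabolism also held polyamine genes (Odc1, Srm and Sms) and tryptophan-degrading enzymes (Ido1, Ido2, Tdo2 and Kynu). Of its genes, 8 of 18 tested were higher and 1 lower in NSCLC (median 0.52), and 1 of 16 was higher and 3 lower in resistance (0.09). The higher one in resistance was Bcat1, the cytosolic branched-chain aminotransferase, which rose from 7.57 ± 3.87 to 85.6 ± 52.5 CPM. Arg1 and Arg2, the arginases, fell there. Arg1 was at 222, 1541 and 346 CPM in sensitive and 36.5 to 255.0 CPM in resistant libraries, in overlapping ranges. It was highest in sensitive library 2, where the macrophage sum was highest, and the part of macrophages in its fall was not tested. Arg2 fell from 52.9 ± 7.82 to 8.06 ± 4.39 CPM. Of genes of amino acid sensing by mTORC1, 11 of 32 tested were higher and 6 lower in NSCLC (median 0.15), and 7 of 33 were higher and 4 lower in resistance (0.29). Flcn fell from 93.0 ± 3.94 to 28.6 ± 4.01 CPM in NSCLC, and Rheb, the activator of mTORC1, from 217 ± 37.0 to 94.1 ± 20.5 CPM in resistance. Both of these genes fell, although higher calls outnumbered lower ones on this list in each comparison. A list of amino acid and peptide carriers of other families also held Slc6a20a and Slc6a20b, which fall outside the symbol rule. It had 4 of 21 tested higher and 3 lower in NSCLC (median -0.24) and 4 of 15 higher and 3 lower in resistance (-0.05). Of all genes tested, 28.5% were called higher and 25.0% lower in NSCLC, and 19.3% and 18.2% in resistance. The shares called among the mTORC1 genes lay somewhat above those for higher calls and somewhat below them for lower calls. Shares among the carriers of the last list lay below the shares of all genes in NSCLC and near or above them in resistance. No difference was tested. The peptide carrier gene Slc15a2 fell in both, from 79.0 ± 29.5 to 1.34 ± 1.45 CPM in NSCLC and from 18.1 ± 3.82 to 2.61 ± 1.20 CPM in resistance.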

How the data were processed

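The authors deposited raw read counts for each gene in each library, as the file headers and whole-number values show, together with their own log2 fold changes and adjusted p-values. The submitters' processing notes name STAR 2.6.0a, DESeq2 1.26.0 and mm10. For the read counter, its use of strand and the annotation, nothing is given in the sources used here. A further 19 deposited columns of scaled values per library were not used. Each table was analysed on its own with R 4.3.3: filterByExpr, TMM scaling and edgeR 4.0.16's quasi-likelihood test (glmQLFit and glmQLFTest) over all genes, with Benjamini-Hochberg adjustment and calls at an adjusted p under 0.05. SE is the log2 fold change over the square root of F, CPM is the count over the TMM-scaled library size, and intervals and bounds cover counting error only (3 counts as the floor for a group at 0). The fit was tested on simulated counts. Exon lengths are from GENCODE on mm10, and start regions from RefSeq.

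The transporter genes, the related lists and the markers were chosen with earlier results of these data known. Full values are given for up to 8 called transporter genes per direction with a mean of at least 1 CPM in a group, for a fixed set of well-studied carriers and for genes called in both tables, and for up to 4 called genes per related list. Some genes that meet these rules are not reported here. Genes whose reads could be shared with near copies or antisense genes were not set apart. Alternatives were RLE and upper quartile scaling, no filter on low counts, DESeq2 1.42.0, the replicate number as a block, leaving out each library, leaving out resistant libraries 8 and 9 or 6, 8 and 9, and, in the NSCLC table, thinning to equal depth. No library pair in a group agreed within counting noise. Among resistant libraries, 2 and 3 were the closest pair (chi-square per gene against counting noise 18.4), then 8 and 9 (25.6). The other resistant pairs lay at 60.2 to 205. The labels do not say whether close libraries share a culture, so the 9 resistant libraries may not be equally independent.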

Additional observations from a re-analysis of the deposited data

Results flagged for a closer look

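In 8 cases, 1 library stood far from the rest of its group, with a gap to the nearest library above Dixon's 95% critical value, which chance exceeds in about 1 in 20 groups. Only NSCLC and resistant libraries were screened, for the named transporter genes (30 and 26 of them tested), so some cases may be chance. The normal and sensitive groups, with 3 libraries each, were not screened. In NSCLC library 2, Slc3a1 was at 0.792 CPM, against 0.149 to 0.249 CPM in the other NSCLC libraries. In NSCLC library 1, Slc6a14 was at 38.3 CPM, against 2.48 to 7.30 CPM in the others. Resistant library 5 held 3 of the cases: Slc1a2 was at 1.85 CPM (others 0.0396 to 0.766), Slc1a3 at 35.98 CPM (others 2.79 to 19.4) and Slc36a4 at 15.0 CPM (others 8.48 to 11.2). Resistant library 1 held 2, with Slc6a6 at 538 CPM (others 198 to 349) and Slc7a6 at 138 CPM (others 63.3 to 90.7). In resistant library 9, Slc6a14 was at 0.555 CPM, against 0 to 0.236 CPM in the others.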

How the results depend on the processing

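In NSCLC, of the values of 30 named transporter genes under 13 alternatives, 338 kept direction and call, 32 lost the call, 8 gained one and 10 changed sign. In resistance, of those of 26 genes under 19 alternatives, the numbers were 430, 59, 2 and 3. The sign changes were of genes not called. For Slc7a2 in NSCLC the log2 fold change was -0.0409 with RLE scaling, -0.0405 in DESeq2, -0.19 with upper quartile scaling, -0.14 after thinning and -0.31 to 0.63 with a library left out. For Slc6a8 in NSCLC it was -0.26 to 0.92 with a library left out, negative without NSCLC library 3, and for Slc7a8 in resistance -0.0002996 to 0.58, negative without sensitive library 3. With a library left out, the transporter genes called higher in resistance numbered 1 to 9, against 7. Genes of related pathways called lower in NSCLC numbered 8 to 16, against 14, and in resistance 13 to 24 were higher, against 22, and 18 to 32 lower, against 29. Fewer libraries enter those fits, and the cause was not tested further.

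Replicate numbers did not pair the libraries: the correlation of same-numbered deviations was -0.01, 0.02 and -0.02 in NSCLC and 0.14, 0.15 and -0.09 in resistance. With the number as a block, 8 transporter genes were higher and 10 lower in NSCLC, and 5 higher and 11 lower in resistance. Of the named transporter genes alone, those that lost their call with the block were Slc6a9 (edgeR adjusted p = 0.0766), Slc6a15, Slc7a3, Slc38a9 and Slc38a10 in NSCLC. In resistance they were Slc1a5, Slc3a2, Slc38a9, Slc38a10 and Slc43a2. Log2 fold changes that changed sign under the block were -0.39 for Slc7a2 in NSCLC, and -0.0512 for Slc7a7 and -0.24 for Slc7a8 in resistance. Fewer counts in normal than in NSCLC libraries limit values under about 0.14 CPM in normal organoids, the level of 3 counts in the shallowest library.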
